A study of Arabidopsis thaliana with 11 samples.

Results

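The transcriptome of the wild-type Col-0 root tip of Arabidopsis thaliana was described from 3 RNA libraries, out of 11 in the series, chosen as all libraries whose labelled genotype is wild type. The other libraries came from crn-3, clv2-gabi and cle40-2 root tips in the same Col-0 background and were not compared here. Col-0 is the standard laboratory accession, and it carried no mutation or transgene per the labels. Seedlings grew upright on agar with Murashige and Skoog salts, vitamins, MES and sucrose under constant light. The sources used here do not give their age, the length of root cut or whether the 3 samples came from separate cultures. The values are the authors' deposited Col-0 group means of normalised read counts, rounded to whole numbers, over 28495 genes. No value per library was used, so no mean below carries a standard deviation, no test was possible, and a mean could rest on a single library. Depth per library is unknown, and a mean printed as 0 is one that rounds to 0.

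A root tip holds, in order from the apex, the root cap, the stem cell niche with its quiescent centre, a zone where cells divide, and a zone where they elongate and begin to differentiate. Cells in the division zone copy their DNA and make new ribosomes and cytoplasm in each cycle, and genes for ribosomes, chromatin and cell division are well known from this tissue. Tissues lie in concentric layers, with epidermis outside, cortex and endodermis beneath, and a vascular cylinder of xylem, phloem and pericycle inside. In whole tips, fewer cells of a type and less RNA per cell cannot be told apart.

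The wild-type root tip transcribed a majority of the annotated genes, and a small share of the genes held much of the summed mean. A mean of at least 10 was reached by 18222 genes, 63.9% of the table, and a mean of at least 100 by 14543 genes. Means of 1000 or more were printed for 5604 genes and of 10000 or more for 475. At the other end, 7226 genes, 25.4%, were printed as 0, and all of them were also 0 in the Col-0 columns of the other 2 deposited tables, which hold the same samples on slightly different scales. The summed mean was 28800590. The 10 highest genes held 4.26% of it, the 100 highest 17.2% and the 1000 highest 51.7%. The highest 915 genes held 50% of the sum and the highest 6952 held 90%. Because long transcripts give more reads, levels of different genes are best compared as the mean per kilobase of annotated exon, written per kb. Where means are given without it, they show the reads behind a gene and mix level with length. The median over the 28008 genes with a known exon length was 69.9 per kb, with quartiles of 0.51 and 376 per kb.

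**Figure D1:**
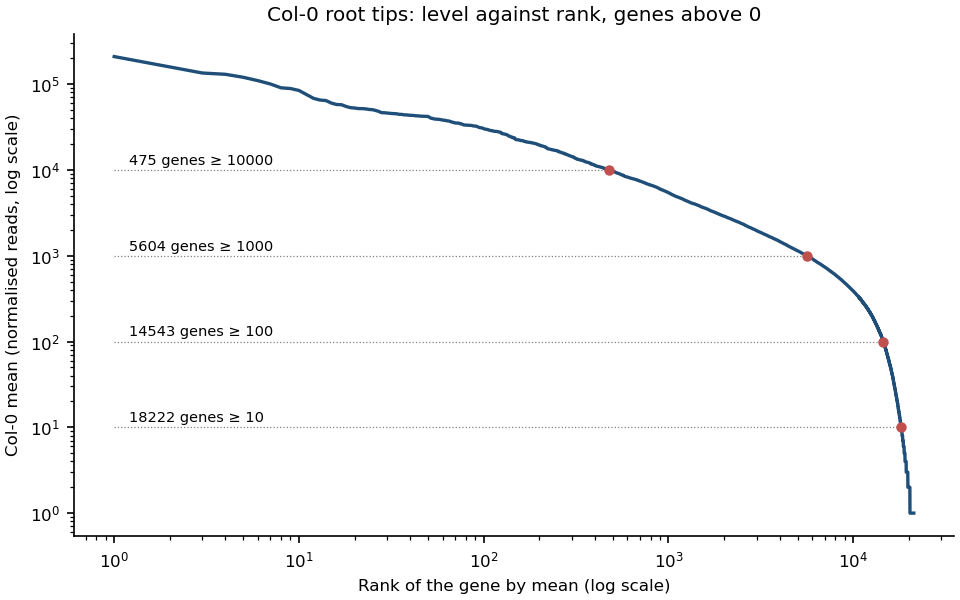
Col-0 mean (normalised reads, log scale) of each gene above 0 against its rank (log scale). The red points mark how many genes reached 10, 100, 1000 and 10000; the curve drops steeply after about the first 14543 genes, which have means of 100 or more.

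The genes with the highest means, the most reads without regard to length, served translation, methyl-group supply, protein folding and central carbon metabolism. First came AT5G60390, annotated as a GTP-binding elongation factor Tu family protein, the class that brings charged tRNA to the ribosome, with a mean of 209657 and 90175 per kb. ATMS1, a cobalamin-independent methionine synthase, followed with a mean of 158679, and HOG1, the S-adenosyl-homocysteine hydrolase of the same methyl cycle, had a mean of 120180. The constitutive chaperone gene HSC70-1 had a mean of 134899. These genes belong to pathways that every growing cell uses. AAC1, an ADP/ATP carrier that exports ATP from mitochondria, had a mean of 109810. The glycolytic genes GAPC1 (glyceraldehyde-3-phosphate dehydrogenase), LOS2 (enolase) and FBA8 (aldolase) had means of 100486, 88942 and 84436. LOS1, an elongation factor of the translocation step, reached 90626. The next ranks held 6 ribosomal protein genes, RP1, AT3G09200, AT5G20290, emb2386, P40 and ATL5, with means of 75430 down to 52703. Beside them stood GRP7, an RNA-binding protein of the circadian system, at 60124, the cell wall arabinogalactan protein gene AGP31 at 57572, and the elongation factor genes AT1G07930 at 57905 and AT1G07920 at 53226. An 18S ribosomal RNA gene, AT3G41768, also appeared among the highest with a mean of 130309, but just 5.7% of its 50-base windows occur once in the genome, which leaves the locus of most of its reads unknown.

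Per kb of exon, ribosomal protein genes moved up. They were 10 of the 20 highest genes and 76 of the 100 highest. By the mean without regard to length they were 47 of the 100 highest. Behind AT5G60390 and the 18S RNA came AAC1 at 63511 per kb, NDPK1 at 60807, GAPC1 at 58729, and the ribosomal protein genes AT5G20290 (S8e family) at 58451, emb2386 (L19e family) at 58053, AT4G27090 (L14) at 57595 and AT5G02960 (S12/S23 family) at 56140. NDPK1, a nucleoside diphosphate kinase gene that balances nucleotide pools, has a gene model of 450 bases without untranslated regions, so its value per kb is too high against the others. HOG1, HSC70-1, GRP7 and ATMS1 had 54111, 52798, 51609 and 47881 per kb. ROC5, a cyclophilin that helps proteins fold, had 46732 per kb. The other ribosomal protein genes among the 20, AT3G60245, AT2G34480, AT3G09200, AT1G67430, emb2171 and AT4G18100, ran from 51158 to 43720 per kb.

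Genes for cytosolic ribosomal proteins held the largest share of the summed mean among the 48 families counted. Of 234 such genes, 223, or 95.3% against 67.0% of all protein-coding genes, had a mean of at least 10, 206 had a mean of at least 1000, and 5 were printed as 0. Together they held 14.8% of the summed mean. Their median was 17469 per kb, 206 times the median of all 26709 protein-coding genes, 84.6 per kb. A further 50 ribosomal protein genes are annotated to mitochondria or plastids and not to the cytosolic ribosome. Of these 48 reached 10, at a median of 553 per kb, and they held 0.21% of the sum. The set is not purely organellar: its highest gene, AT1G26880 at 8026 per kb, and RPL10B at 3118 per kb carry the L34e and L10e names of cytosolic ribosomal proteins.

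Most cytosolic ribosomal proteins are encoded by several near-equivalent genes, and in the root tip these shared the load. In 54 groups of 2 to 5 genes with the same product name (156 genes), the highest member held a median of 57.4% of the group's summed value per kb. That share ranged from 35.2% to 100%. In 41 of the 54 groups every member stood at 1000 per kb or more. How the authors assigned reads of near-identical copies is unknown, and 18 of the 234 genes had under 90% of their 50-base windows unique.

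The other parts of the translation machinery were high as well. Elongation factor genes held 2.15% of the sum, with 29 of 30 at 10 or more and a median of 1308 per kb, and a single gene, AT5G60390, made up 30.2% of their summed value per kb. AT5G60390 had 94.0% of its windows unique, while its relatives AT1G07920, AT1G07930 and AT1G07940, at 28647, 30573 and 17741 per kb, had 32.8%, 55.4% and 52.7%. The EF1B gene AT5G19510 had 32336 per kb. Initiation factor genes held 1.12% of the sum, led by FBR12, an eIF5A gene, at 40436 per kb, EIF4A1, an RNA helicase gene, at 13745, and the poly(A)-binding protein genes PAB2 and PAB4 at 9466 and 6606 per kb.

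Promoters of ribosomal protein genes in plants are known for short shared elements, the telo box and site II, and the same elements could be looked for here because these genes stood together at the top. A promoter was taken as the 250 bases before the annotated start, read from the RefSeq TAIR10.1 genome. The letters searched on both strands were AAACCCTA for the telo box and TGGGCC or TGGGCT for site II. The 3 cytosolic ribosomal protein genes with the highest value per kb are shown 5′ to 3′ on the gene's strand, with matches in capitals. AT5G20290 lies at chr5:6853107-6853356, emb2386 at chr1:609535-609784 and AT4G27090 at chr4:13595253-13595502, all on the minus strand.
AT5G20290: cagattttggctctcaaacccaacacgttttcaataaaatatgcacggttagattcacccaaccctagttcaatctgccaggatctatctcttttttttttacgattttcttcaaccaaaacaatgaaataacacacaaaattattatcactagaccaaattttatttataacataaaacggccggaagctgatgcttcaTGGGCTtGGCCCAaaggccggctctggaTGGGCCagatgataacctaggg
emb2386: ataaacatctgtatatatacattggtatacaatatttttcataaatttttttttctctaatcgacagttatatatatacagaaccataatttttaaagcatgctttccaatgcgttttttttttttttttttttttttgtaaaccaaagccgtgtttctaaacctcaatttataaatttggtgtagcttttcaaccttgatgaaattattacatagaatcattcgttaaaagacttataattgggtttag
AT4G27090: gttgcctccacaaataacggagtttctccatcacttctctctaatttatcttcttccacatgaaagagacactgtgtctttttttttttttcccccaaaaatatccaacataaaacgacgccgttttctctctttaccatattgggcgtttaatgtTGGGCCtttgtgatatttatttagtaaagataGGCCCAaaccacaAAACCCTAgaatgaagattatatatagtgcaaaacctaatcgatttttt

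These 3 promoters differed, although their genes lay within 58451 to 57595 per kb. AT5G20290 had 3 site II matches, the nearest ending 16 bases before the start, and no telo box. AT4G27090 had 1 telo box, 41 bases before the start, and 2 site II matches. No match to either element was found in emb2386. Over all 234 promoters of the family, 160, or 68.4% (95% Wilson interval 62.2 to 74.0%), held a site II match, against 5187 of 26708 promoters of protein-coding genes, 19.4%. A telo box was found in 52 of the 234, 22.2%, against 4.44% of all promoters. Both elements occurred together in 17.5% of the family and in 1.4% of all promoters. The intervals cover counting error only, and promoters of duplicated genes are not independent. Matches in the family lay close to the start, with a median distance of 25 bases for the telo box and 55 bases for site II, against 93 and 83 bases over all promoters.

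Site II followed the level across the genome, and the telo box did not in the same way. Among genes printed as 0, 597 of 5923 promoters held site II. The share was 13.1% at means above 0 and below 10, 14.6% from 10 to below 100, 23.4% from 100 to below 1000, 27.6% from 1000 to below 10000 and 47.8% at 10000 and above. The last class includes 154 cytosolic ribosomal protein genes among its 473 genes. For the telo box the shares in the same order were 6.82%, 4.2%, 3.03%, 3.5%, 3.87% and 10.4%, so both the genes at 0 and the most abundant genes lay above the classes between. Median GC content was similar, 30.8% in promoters of genes at 0 and 32.4% in those at 10000 and above. The window was not placed alike in all classes. For gene models without untranslated regions it ends at the coding start and can miss part of the promoter. Such models made up 35.1% of genes at 0, 11.2% at 1 to 9 and 0.117% from 1000 to below 10000. What this did to the shares was not tested.

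**Figure D2:**
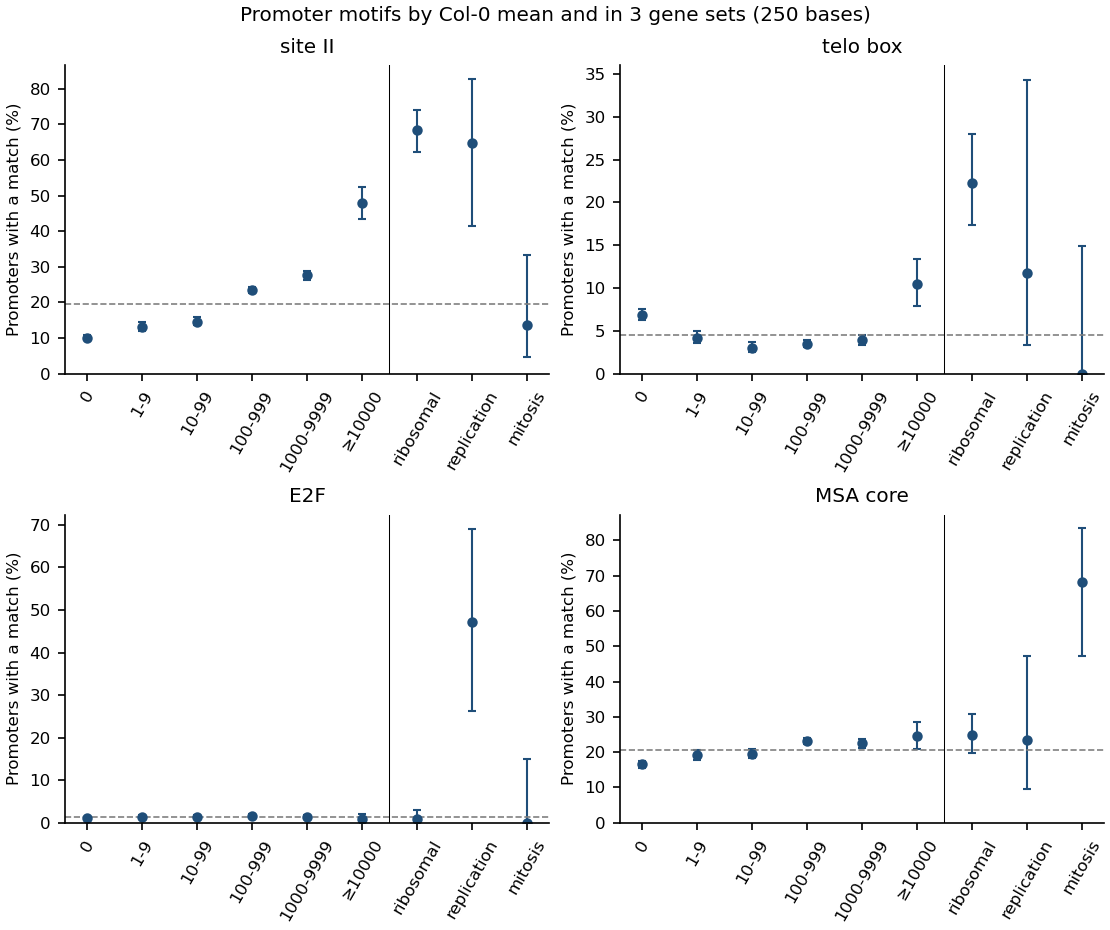
Percent of promoters (250 bases before the start) that hold a match to site II, the telo box, E2F or the MSA core, for protein-coding genes by Col-0 mean (left of the line) and in 3 gene sets (right); bars are 95% Wilson intervals and the dashed line is the share in all protein-coding genes. Site II reached 47.8% in genes at 10000 and above, E2F 47.1% in replication genes and the MSA core 68.2% in mitosis genes.

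Every listed gene of DNA replication and mitosis was transcribed. All 17 genes of the replication list and all 22 of the mitosis list had means above 10. Over all protein-coding genes 67.0% had a mean of at least 10. All genes of both lists also stood above the median of all genes per kb. The lists were chosen with earlier results of these data known, so they do not measure how complete either process was. The replication list had a median of 614 per kb, 8.79 times the median over all genes, and the mitosis list 554 per kb, 7.93 times. TSO2 and RNR1, subunits of ribonucleotide reductase, which makes the building blocks of DNA, had 2291 and 1077 per kb. The sliding clamp genes PCNA2 and PCNA1 had 2176 and 2047 per kb, and MSI1, a histone chaperone subunit, 1328. These supply nucleotides, the polymerase clamp and new chromatin. Genes of the MCM helicase, MCM2 to MCM7, lay between 851 per kb for MCM7 and 345 for MCM6. The lowest member was FAS2, a subunit of a chromatin assembly factor, at 165 per kb. Core histone genes, the bulk product of S phase, had 47 of 54 members at 10 or more, a median of 2580 per kb and 0.534% of the summed mean. HTB11 (H2B) led them at 10386 per kb, followed by AT5G10980 at 9685, HTA6 (H2A) at 9392 and AT5G65360 at 9329.

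Among mitotic genes the highest was SYP111, also called KNOLLE, the syntaxin that fuses vesicles at the growing cell plate, with 1654 per kb. CDC20.1 and CDC20.2, activators of the anaphase-promoting complex, had 1295 and 1105 per kb, with 66.8% and 63.7% of windows unique, so that reads of the pair could have been exchanged. CDKB1;1, a plant-specific mitotic kinase gene, had 1178 per kb. CYC1BAT, a B1-type cyclin gene, had 984 per kb, and MAD2, of the spindle checkpoint, 973. Even the lowest member, CYCB2;1, stood at 180 per kb. CDK inhibitor genes and genes of the endocycle, the switch to DNA copying without division, were present beside them. SIM and LGO, a pair of CDK inhibitor genes, had 1182 per kb each, the cell cycle exit activator gene CCS52A1 had 565 per kb, and the CDK inhibitor genes KRP3, KRP7 and KRP2 had 228, 193 and 168. KRP1 was the exception, with a mean of 4.

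Replication and mitosis genes are known targets of different factors, E2F and R1R2R3-type MYB proteins, and their promoters differed in the letters they held. For E2F the letters searched were TTTCCCGC, TTTGCCGC, TTTGGCGC and TTTCGCGC, and for the mitosis-specific activator (MSA) core AACGG, both strands. The members of each list with the highest value per kb among those with a match are shown, with matches in capitals. MCM2 lies at chr1:16969964-16970213 on the plus strand. MCM4 lies at chr2:7130730-7130979, SYP111 at chr1:2711001-2711250 and CYC1BAT at chr5:1861704-1861953, all on the minus strand.
MCM2: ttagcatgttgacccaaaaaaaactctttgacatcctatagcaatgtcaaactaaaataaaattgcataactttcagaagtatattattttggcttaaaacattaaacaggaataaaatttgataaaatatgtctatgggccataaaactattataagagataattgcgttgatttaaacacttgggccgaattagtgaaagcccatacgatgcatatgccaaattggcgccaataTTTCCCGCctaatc
MCM4: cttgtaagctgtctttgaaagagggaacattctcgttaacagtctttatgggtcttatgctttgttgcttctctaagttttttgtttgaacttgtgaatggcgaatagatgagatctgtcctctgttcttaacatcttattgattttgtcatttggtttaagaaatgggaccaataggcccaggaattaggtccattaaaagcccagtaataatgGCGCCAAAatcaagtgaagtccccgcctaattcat
SYP111: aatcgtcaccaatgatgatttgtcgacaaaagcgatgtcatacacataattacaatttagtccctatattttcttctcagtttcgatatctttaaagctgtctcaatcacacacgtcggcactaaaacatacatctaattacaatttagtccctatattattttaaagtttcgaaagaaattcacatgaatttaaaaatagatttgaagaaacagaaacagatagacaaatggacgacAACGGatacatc
CYC1BAT: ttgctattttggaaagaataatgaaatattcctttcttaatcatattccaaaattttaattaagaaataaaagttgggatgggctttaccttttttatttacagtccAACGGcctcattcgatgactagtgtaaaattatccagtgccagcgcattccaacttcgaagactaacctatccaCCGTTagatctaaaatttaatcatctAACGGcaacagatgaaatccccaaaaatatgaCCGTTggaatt

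In MCM2 the E2F match ended 6 bases before the start and in MCM4 27 bases before it. SYP111 had 1 MSA core and CYC1BAT had 4, spread from 6 to 143 bases before the start. E2F letters were found in 8 of 17 replication promoters, 47.1% (26.2 to 69.0%), in 0 of 22 mitosis promoters, with a Wilson upper bound of 14.9%, and in 1.41% of all promoters. MSA core letters were found in 15 of 22 mitosis promoters, 68.2% (47.3 to 83.6%), in 23.5% of replication promoters and in 20.6% of all. Site II was present in 11 of the 17 replication promoters, 64.7%, and in 3 of the 22 mitosis promoters. Not every list member held the letters named for it. For PCNA1 and PCNA2, with 2047 and 2176 per kb, no E2F match was found in this window.

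All 17 genes of the stem cell niche list had a mean of at least 10, against 67.0% of all protein-coding genes. Their median was 328 per kb. The list was chosen with earlier results of these data known, and at a minimum mean of 20 the count was 16. RGF3, which encodes a secreted root meristem growth factor peptide, had 887 per kb, and AT4G26540, annotated as a leucine-rich repeat receptor-like kinase, had 477. SCR and SHR, GRAS transcription factor genes that set up the endodermis and the niche, had 781 and 539 per kb, and their zinc finger partner gene JKD had 521. The PLETHORA genes, AP2-type factors that maintain the meristem, were ordered PLT3 (annotated AIL6) at 568 per kb, PLT1 at 378, PLT2 at 276 and BBM at 168. WOX5, the homeobox gene known from the few cells of the quiescent centre, was the lowest of the list, with a mean of 12 and 11.4 per kb.

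Genes of the CLE40 peptide pathway covered a wide range. CLE40, the small secreted peptide gene for which a mutant of the series is named, had a mean of 1. CLV2, a receptor-like protein gene without a kinase domain, had a mean of 198 and 76.5 per kb, and its membrane partner CRN a mean of 98 and 40.0 per kb. CLV1, the receptor kinase gene of the shoot meristem, had 34.1 per kb, while its relatives BAM1, BAM2 and BAM3 had 1007, 370 and 107, so that BAM1 stood 29.5 times above CLV1 per kb. The receptor kinase gene ACR4 had 77.5 per kb. Of the 8 genes, CLE40 was the sole member below 10. CRN and BAM2 overlap an antisense gene, and whether the counting used strand is unknown.

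Root cap genes were present with few exceptions. In all, 12 of 13 had a mean of at least 10, 92.3% against 67.0% of all protein-coding genes. Above the median of all genes per kb stood 10 of them. The list was chosen with earlier results of these data known. CEL5, a cellulase gene of shedding cap cells, was highest at 1446 per kb, followed by the ribonuclease gene RNS3 at 943 and AT1G65570, annotated as a pectin lyase-like protein, at 523. The cap maturation factors NAC015 (BRN1), SMB and NAC070 (BRN2) had 474, 310 and 162 per kb, and FEZ, which drives division of cap stem cells, 128. AT4G04460, annotated as a saposin-like aspartyl protease, had 245 per kb and the nuclease gene BFN1 41.6. The protease gene CEP1, with a mean of 4, was the member below 10. Next lowest was AT4G18425, annotated as a putative transmembrane protein, with a mean of 16 and 14.9 per kb.

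Epidermal patterning genes were all present, and root hair genes covered a wide range. All 10 patterning genes reached 10, against 67.0% of all protein-coding genes, with a median of 266 per kb. WER, the MYB factor of non-hair cells, had 1026 per kb, its mobile opponent CPC 574, the WD-repeat gene TTG1 366, and the bHLH partners EGL3 and GL3 270 and 256. GL2, the homeobox gene these factors act on, had 261 per kb. Hair initiation was represented by RHD6, a bHLH gene, at 708 per kb, and RSL1 at 144. CSLD3, a wall synthase gene needed for hair growth, had 1338 per kb and RHD2, an NADPH oxidase gene, 354. LRX2, a wall protein gene, had 312. The other hair genes ran from SHV2 (COBL9) at 192 per kb, above RSL1, down to RSL2 at 13.0. Between them lay RHS13 at 102, PRP3 at 93.4, RSL4 at 64.3, EXPA7 at 60.9, EXPA18 at 27.2 and PRP1 at 13.8 per kb.

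In the ground tissue, cortex and endodermis genes were present and suberin genes were close to 0. The 3 cortex genes had 132 to 448 per kb. The 10 endodermis genes all reached a mean of 10, against 67.0% of all protein-coding genes. Their median was 37.3 per kb, with just 2 above the median of all genes. CASP1 and CASP2, which build the membrane domain beneath the Casparian strip, had 66.4 and 28.1 per kb. Suberin, the later lipid barrier of the endodermis, was hardly represented. Just 2 of 8 genes reached 10, FAR5 with a mean of 195 and RWP1 (ASFT) with 38, while GPAT5 and FAR1 were printed as 0 and the other 4 had means of 1 to 4. Pericycle and lateral root genes were near 0 too: 5 of 6 had means of 0 to 4, LBD29 was at 0, and the phosphate exporter gene PHO1 had a mean of 54.

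In the vascular cylinder, patterning genes stood higher than genes of xylem and phloem cells. All 11 vascular patterning genes reached 10 and stood above the median of all genes per kb, with a list median of 209 per kb. LHW, a bHLH gene that drives divisions of vascular founder cells, had 645 per kb, its partner gene TMO5 209, the class III homeodomain gene PHB 417, the thermospermine synthase gene ACL5 334 and the Dof gene TMO6 271. Xylem genes had a median of 11.3 per kb. A mean of 10 was reached by 14 of 18, 77.8%, against 67.0% of all protein-coding genes. The count was 16 at a minimum mean of 5 and 10 at a minimum of 20. GUT2 (IRX10), a xylan gene, was highest at 146 per kb, and the xylem proteases XCP2 and XCP1, which act in dying vessel cells, had 93.6 and 91.3. Of the VND factors, switches of vessel formation, NAC105 (VND3) had 73.6 per kb, VND7 had a mean of 13, and NAC101 (VND6) was printed as 0. Phloem genes had a median of 17.1 per kb. The SMXL3, OPS and APL genes of early phloem had 102, 87.0 and 63.6 per kb. Genes of functioning sieve tubes and companion cells were lower. The sucrose transporter gene SUC2 had a mean of 14 and 6.83 per kb. PP2-A1 had a mean of 2 and 1.32 per kb, and the filament protein gene SEOR1 3 and 1.13 per kb. Low values were not confined to them, with NAC086, NEN4 and NAC045 at 8.18, 7.26 and 3.94 per kb. The glucan synthase gene CALS7 had 17.1 per kb. CLE45, a phloem peptide gene, was at 0.

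**Figure D3:**
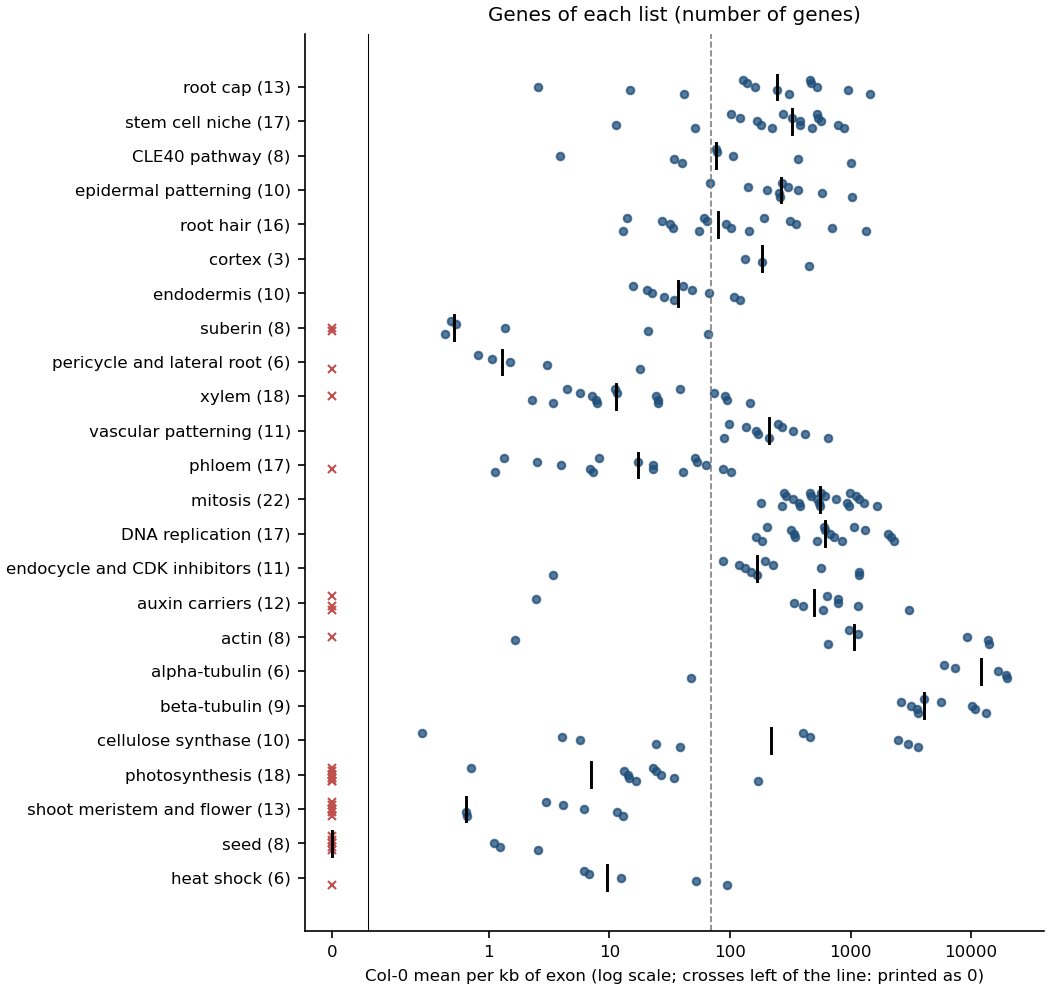
Col-0 mean per kb of exon (log scale) of each gene in 24 lists; crosses left of the line are genes printed as 0, black bars are list medians and the dashed line is the median of all genes, 69.9 per kb. Replication, mitosis and stem cell niche genes lie mostly right of the dashed line, suberin, seed and shoot genes left of it.

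Auxin carriers ranged widely, and some were printed as 0. PIN2, the efflux carrier of epidermis and cortex, had a mean of 9550 and 3065 per kb. PIN4, PIN3 and PIN7 had 634, 406 and 338 per kb. The influx carriers AUX1, LAX2 and LAX3 had 1147, 792 and 587 per kb, whereas LAX1 had a mean of 6. PIN5, PIN6 and PIN8 were printed as 0. Auxin response genes of the Aux/IAA and ARF type had 36 of 51 members at 10 or more, 70.6%, near the 67.0% of all protein-coding genes, and were led by the repressor genes IAA9 at 2733 per kb, IAA16 at 2352, AXR3 at 1748 and IAA8 at 1112.

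Families with tissue-specific members showed which copies the root tip used. Among 8 actin genes, ACT7, ACT2 and ACT8, known as the vegetative actins, had 14046, 13799 and 9216 per kb and made up 93.0% of the actin total per kb. ACT11, ACT3 and ACT1 had 1158, 969 and 647 per kb, ACT4 had a mean of 3, and ACT12 was at 0; these are known as the reproductive actins. The reproductive class was therefore not uniform here. In the alpha-tubulin family TUA6, TUA4 and TUA2 had 19913, 19483 and 16643 per kb, TUA5 and TUA3 7349 and 5964, and the pollen isoform TUA1 47.2. Between 65.4% and 90.2% of the windows of TUA2 to TUA6 were unique, so their order is uncertain, whereas TUA1 was unique throughout. Beta-tubulin was spread more evenly, from TUB4 at 13183 and TUB3 and TUB2 at 10853 and 10127, through TUB7 at 5638, TUB1 at 4035, TUB9 at 3609, TUB5 at 3586 and TUB6 at 3193, to TUB8 at 2605 per kb. TUB2 and TUB3 had 77.4% and 77.7% of windows unique.

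The main cellulose synthase genes of the primary wall stood far above those of the secondary wall. CESA3, CESA1 and CESA6, of the primary wall, had 3598, 3016 and 2481 per kb and held 90.7% of the family total. CESA2 and CESA5, close relatives of CESA6, had 461 and 400 per kb. CESA4, CESA7 and CESA8, of the secondary wall of xylem, had 38.4, 24.4 and 5.68 per kb, 0.683% of the family together. CESA9 had 4.04 per kb and CESA10 a mean of 1, both below the secondary wall genes. Other wall families were also carried by a few genes. Of 37 expansins 19 reached 10, 51.4% against 67.0% of all protein-coding genes. EXPA9, EXPA14, EXPA15 and EXPB1, with 5137, 2292, 2029 and 1596 per kb, made up 66.0% of the expansin total. Among 32 xyloglucan endotransglucosylase/hydrolase genes XTH19, XTH8, XTH4 and XTH18 had 3541, 3133, 1919 and 1139 per kb.

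**Figure D4:**
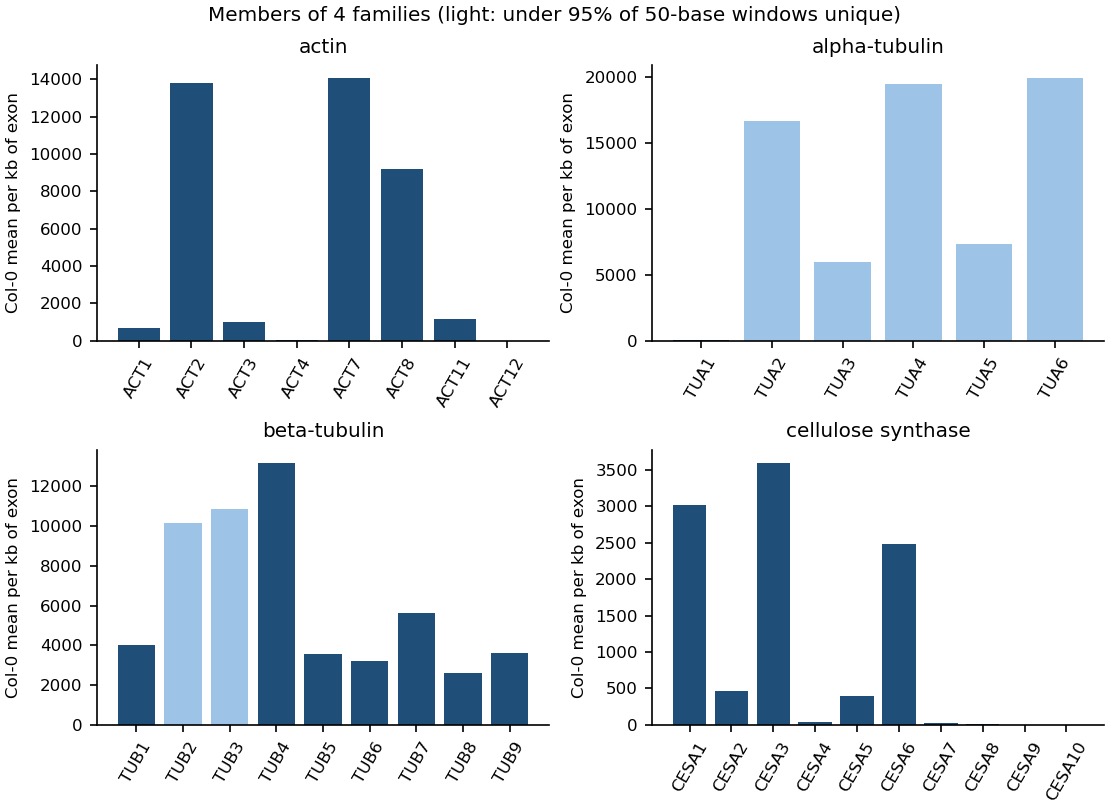
Col-0 mean per kb of exon (linear axis) for each member of the actin, alpha-tubulin, beta-tubulin and cellulose synthase families; light bars mark genes with under 95% of 50-base windows unique. ACT2, ACT7 and ACT8 stand high beside ACT4 and ACT12 at about 0, and CESA1, CESA3 and CESA6 beside CESA4, CESA7 and CESA8.

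Several surface, defence and detoxification families also held parts of the summed mean. Arabinogalactan proteins, sugar-rich wall proteins, held 0.523% of the summed mean, and AGP31 at 38848 per kb and AGP9 at 15040 led them. Glutathione transferases, which couple glutathione to toxic compounds, held 0.603%, led by GSTU19 at 40475 per kb, GSTF8 at 16244, GSTU25 at 15561 and GSTF9 at 13911. Cyclophilins held 0.497%, with ROC5, ROC3 and ROC1 at 46732, 20578 and 18315 per kb. Jacalin lectins, some of which bind the myrosinases of endoplasmic reticulum bodies, held 0.434% although just 22 of 48 reached 10. PBP1 and AT1G52070 had 15801 and 14725 per kb. Extensin-annotated genes were led by EXT3 at 13304 per kb, 26.2% of their total, and by ELP at 9594, whose annotation also places it in the lipid transfer family. Of the class III peroxidases, 39 of 74 reached 10, led by PRXR1 at 12028 per kb. Aquaporins, water channels, had 26 of 38 at 10 or more, 68.4%, near the 67.0% of all protein-coding genes, with PIP3 and PIP1B at 11028 and 9391. Glycolytic enzymes held 1.93% of the sum, GAPC2 following the genes already named with 20817 per kb. All 25 proteasome genes reached 10, at a median of 2984 per kb, with PAG1, PBF1, PAD1 and PAF1, of the 20S core, at 6320, 6211, 5452 and 5195 per kb.

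Families of transcription factors differed widely in level, with medians of 217 per kb for GRAS, 187 for bZIP and 176 for GATA, 1.05 for MYB and 0 for MADS-box genes, against 84.6 over protein-coding genes. Among the genes whose annotated function is that of a sequence-specific transcription factor, the 10 highest were BTF3 at 16560 per kb, HMGB4, HMGB3 and HMGB2 at 6631, 4427 and 3140, AT5G16470 at 2942, HAT1 at 2714, bZIP2 at 2669, 3xHMG-box2 at 2539, IAA16 at 2352 and AT4G16141 at 2157. That function is not recorded for every family member, and BS1 (bHLH family) at 4213 per kb, IAA9 at 2733 and NAC102 at 2377 lay above some of these. BTF3 is better known as a subunit of the nascent polypeptide-associated complex at the ribosome, and HMG box proteins as general chromatin proteins. HAT1 is a homeodomain leucine zipper gene, bZIP2 a basic leucine zipper gene and IAA16 an auxin response repressor gene. Of the transcription factor families counted, GRAS was the most complete, with 31 of 34 at 10 or more and RGA1, a DELLA repressor of gibberellin response, at 911 per kb. By contrast 25 of 106 MADS-box genes, 23.6%, reached 10 and 58, 54.7%, were at 0. Over all protein-coding genes these shares were 67.0% and 22.2%. Leaving out AGL26, whose product is annotated as a tRNA methyltransferase, the highest were AGL31, AGL21 and AGL12 at 359, 328 and 214 per kb. Between GRAS and MADS-box lay bZIP with 56 of 77 (72.7%), WRKY with 48 of 73 (65.8%) and bHLH with 98 of 158 (62.0%). These shares were near the 67.0% of all protein-coding genes. AP2/ERF had 84 of 145 (57.9%), NAC 62 of 114 (54.4%), homeobox 59 of 110 (53.6%) and MYB 47 of 123 (38.2%).

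Large families differed in how many members were printed as 0. Over all protein-coding genes 22.2% were at 0 and 67.0% reached a mean of 10. Pentatricopeptide repeat genes, which process organelle RNA, had 449 of 466 members at 10 or more, but at a median of 70.9 per kb, close to that of all genes. F-box genes, adaptors of protein degradation, had 235 of 694 at 10 or more and 375 at 0. The auxin receptor genes GRH1 (AFB1) and TIR1 were among the highest F-box genes, at 3317 and 1204 per kb, and FBL17, a cell cycle regulator, had 1034. Small secreted peptide families known from pollen, pistil and embryo sac were mostly at 0: 62 of 65 S1-type genes, 72 of 74 ECA1-type genes, 56 of 59 thionin-type genes and 176 of 193 defensin-like genes were printed as 0. Exceptions included AT1G25275 and AT5G64816 of the thionin type at 711 and 542 per kb. The defensin-like genes LCR68, AT4G22235 and AT4G22230 had 2328, 2285 and 1211 per kb. AT1G60995, counted among the S1-type genes, had 411 per kb. Its product is annotated as an S3 self-incompatibility locus-linked pollen protein, not as an S1 family protein. Of the ECA1-type genes 44 of 74, and of the thionin-type genes 26 of 59, had under 90% of windows unique, which limits what a 0 shows there.

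**Figure D5:**
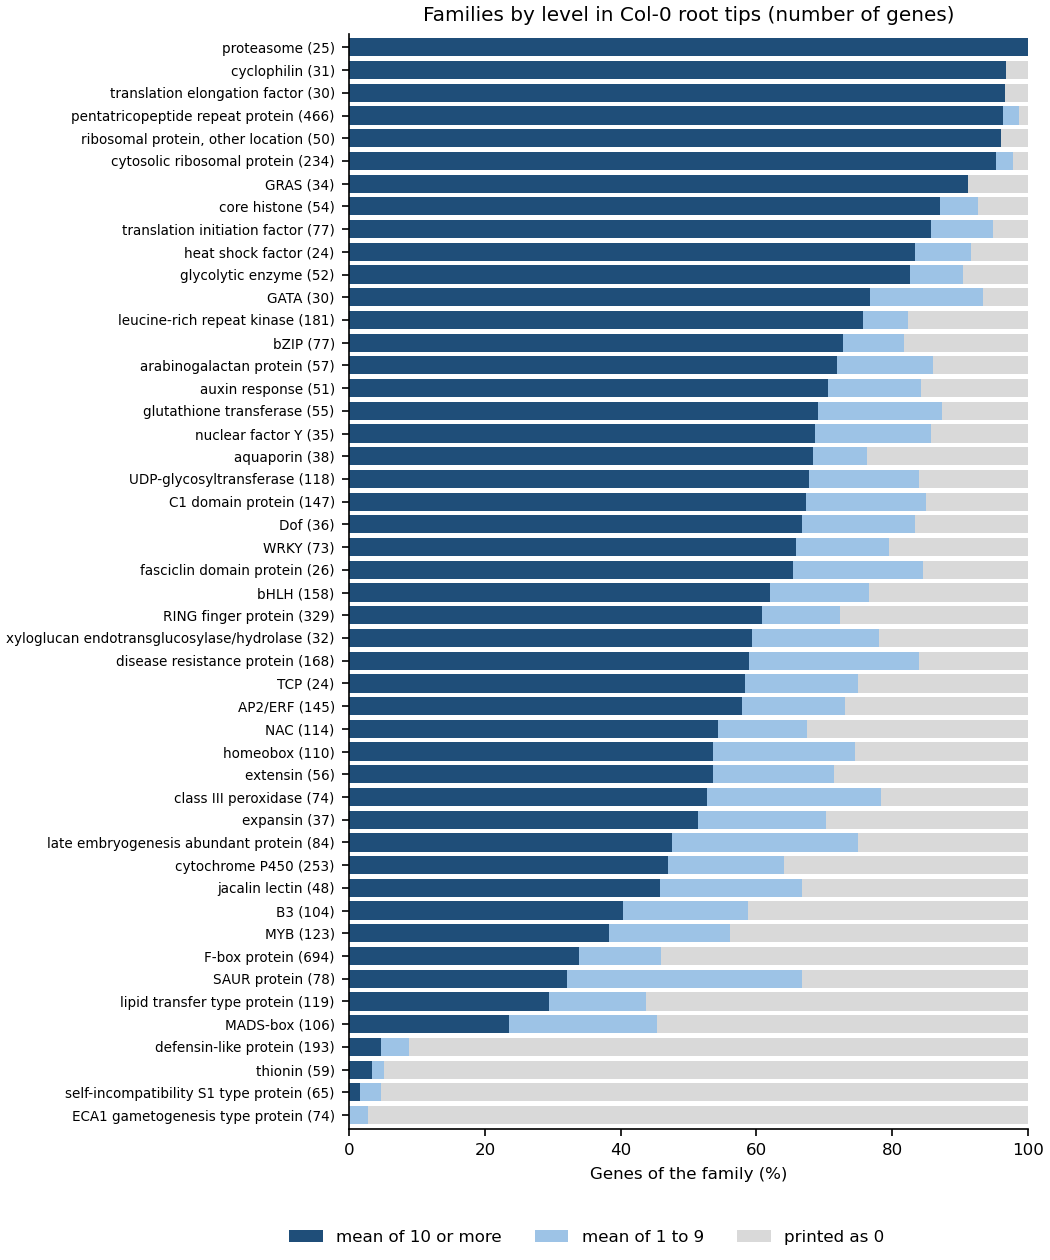
Percent of the genes of 48 families (number of genes in parentheses) with a Col-0 mean of 10 or more, of 1 to 9, or printed as 0. Proteasome, cyclophilin, elongation factor, pentatricopeptide repeat and ribosomal protein families lie at the top with 95.3% of genes or more at 10, and defensin-like, thionin, S1 and ECA1 families at the bottom with 4.66% or less.

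Genes of seed and of shoot meristem and flower were at or near 0, and photosynthesis genes were mixed. Of 18 nuclear photosynthesis genes, 9 had a mean of at least 10 and 8 were printed as 0. Over all protein-coding genes 67.0% reached 10 and 22.2% were at 0. The 8 photosynthesis genes at 0 were the Rubisco small subunit genes RBCS1A, RBCS1B, RBCS2B and RBCS3B, LHCA2, LHCB2.2, FBA2 and PRK. The highest was LHCA4, a photosystem I antenna gene, with 171 per kb, above the median of all genes, followed by PSBO1 with 34.5, and the list's median was 6.97 per kb. Of the genes at 0, LHCB2.2 had the lowest share of unique windows, 70.5%. Of 13 shoot meristem and flower genes, LFY, WUS, AG, AP1, SEP3 and the pollen gene VGD1 were at 0, and the highest were PI and AP3 with 13.0 and 11.5 per kb. None of 8 seed genes reached 10: CRU3, SESA1, CRA1, LEC1 and FUS3 were at 0 and ABI3 had a mean of 8. Heat-induced chaperone genes were mostly low, with HSP101 at a mean of 316, HSA32 at 70, HSP22.0 at 0 and the other 3 between 6 and 9. The list's highest value, 94.0 per kb, was the 1 above the median of all genes.

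Genes printed as 0 also differed in form from those with high means. Protein-coding genes at 0, 5924 in number, had a median exon length of 963 bases in a median of 2 exons, and 35.1% of their models lacked untranslated regions. At means from 1000 to below 10000 the median was 1972 bases in 6 exons, and 0.117% of models lacked untranslated regions. Genes at 10000 and above were shorter again, 1581 bases, at a median GC content of 42.5%, against 40.7% in genes at 0. The classes rest on means not divided by length, so a longer gene reaches a higher class at an equal level per kb. Exon length is therefore not independent of the class, and classes per kb were not examined. Products annotated as uncharacterized, hypothetical or of unknown domain fell in share across the classes, at 21.7% of genes at 0 and 0.846% at 10000 and above. Gene models were themselves built on transcripts, so the lack of untranslated regions is not independent of expression. Of models without them, 7.84% reached a mean of 10, against 73.4% of models with them.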

How the data were processed

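RNA of root tips was extracted with a plant kit with DNase treatment and sequenced on Illumina libraries, per the labels' protocols. CASAVA 1.8.2, DESeq (no version) and TAIR10 are named in the submitters' processing notes. For alignment, counting, strand, multiply matching reads and annotation, tools and settings were not given in the sources used. The values used were treated as scores: the authors deposited, in 3 tables, group means of normalised read counts rounded to whole numbers, which cannot enter a count model. The Col-0 column of the table that also holds clv2-gabi was used. Depth per sample and its precision are unknown.

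Symbols, product names, exons and promoters came from the RefSeq annotation of TAIR10.1, which matched 28008 identifiers and not 487. The tables carry no coordinates, so positions are those of TAIR10.1. The mean was divided by the union of exons. Uniqueness is the percent of 50-base exon windows found once on both strands of the genome. Of protein-coding genes with a mean of at least 10, 32.1% overlap exons of another gene and 3.04% have under 90% of windows unique. Families came from words of the annotation. Lists of 278 entries were matched by symbol: 268 matched, 9 had no symbol and are named by identifier, and 1 was dropped. The members and lists were chosen with earlier results of these data known. Named were the 20 highest genes by mean and per kb, up to 6 per list with any at 0, up to 4 per family, 10 transcription factor and 5 non-coding genes, every member of the actin, tubulin and cellulose synthase lists, and CLE40, CLV2 and CRN. Other members of lists were added after their values were seen, to show a range. Window and motif counts were tested on simulated data. Python 3.11.15, pandas 2.3.3 and scipy 1.17.1 were used. Endodermis genes other than CASP1 and CASP2 are given as a list. The value of 1 auxin carrier gene is not reported here.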

Additional observations from a re-analysis of the deposited data

How the results depend on the processing

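With a minimum mean of 5 in place of 10, 19048 genes counted as transcribed, and with 20, 17339. A minimum of 5 gave 5 shoot meristem and flower genes instead of 2, 1 seed gene instead of 0 and 5 heat shock genes instead of 2, and a minimum of 20 gave 0 shoot meristem and flower genes. The counts of the other lists and of all 48 families stayed within 1.5 times. In the Col-0 columns of the crn-3 and cle40-2 tables the counts were 18137 and 18227, and every list and family count stayed within 1.5 times. The 100 highest genes held 20.24% of the sum per kb and 17.17% of the sum of means. With the longest transcript in place of all exons, the 4 isoform shares moved by at most 0.1 points, and 19 of the 20 genes with the highest values per kb were the same. With promoters of 150 bases, site II and the telo box in ribosomal protein genes stayed within their 250-base intervals. So did E2F in replication genes and the MSA core in mitosis genes. Some other shares left theirs. Site II in mitosis promoters fell to 4.55%, below 4.75 to 33.3%. The MSA core in ribosomal protein promoters fell to 17.1%, below 19.7 to 30.7%. Over all promoters the shares were 15.8% for site II, 3.01% for the telo box, 0.921% for E2F and 14.1% for the MSA core. No paired analysis was possible because the tables hold group means only, and for the same reason no replicate could be left out and no gene has an error.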

Other observations

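Non-coding genes differed by type. All 623 tRNA genes were printed as 0, and since every cell uses tRNA, a 0 there does not show that tRNA was absent. Of 178 microRNA genes 152, 85.4%, were at 0, against 25.4% of all genes. A mean of 10 was reached by 121 of 224 long non-coding RNA genes, 54.0%. The same held for 96 of 170 other non-coding RNA genes, 56.5%. Both shares lay not far below the 63.9% of all genes. The non-coding genes with the highest values per kb, apart from ribosomal RNA, were AT3G12965 at 6222, MIR162a at 2814, AT1G79075 at 2009, MIR822 at 1326 and AT5G34871 at 1166 per kb. The microRNA rows cover precursors. For AT5G34871, 62.4% of windows were unique.

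Some identifiers without a locus had means close to that of a neighbour. Of the 487 identifiers without a TAIR10.1 locus, 11 had a mean of at least 1000, and 6 of these lay within 10% of the mean of a neighbour in locus number. AT3G17998 had 12940 and its neighbour XPL1 12989. AT2G18162 had 3276 and bZIP2 3286, and AT3G62422 had 1355 and BZIP53 1361. The neighbour nearer in level was taken. Whether the same reads were counted for both was not tested.

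The share of transcribed genes followed gene density along the 5 chromosomes. In the fifth of 1-Mb bins with the fewest protein-coding genes (13 to 171 a bin), 50.5% of 1878 genes reached a mean of 10. The share was 60.3%, 66.9% and 70.5% in the next bins and 73.3% in the densest (283 to 326 genes). Genes at 0 made up 39.6% in the sparsest bins and 16.2% in the densest. Between whole chromosomes the share at 10 ran from 64.9% on chromosome 2 to 67.9% on chromosome 5.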
